A study of Macaca mulatta with 10 samples.

Results

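The opioid system of the brain is represented here by 7 genes: the peptide precursors PENK, PDYN and PNOC and the receptors OPRM1, OPRD1, OPRK1 and OPRL1. They were chosen by gene symbol, and every probe set annotated to exactly 1 of these symbols was taken, which gave 10 probe sets of the 22283 on the array. The 7 genes are part of the 11963 genes that have at least 1 probe set with a single symbol (19065 probe sets). PENK, PDYN, PNOC, OPRK1 and OPRD1 each have 1 probe set, OPRL1 has 2 and OPRM1 has 3. No filter on low values was applied, so all 10 probe sets were tested.

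Small tissue punches were taken from the dorsal thalamus of rhesus monkeys (Macaca mulatta), adult and untreated, and their total RNA was measured on Affymetrix U133A arrays, whose probes were designed for human transcripts. The 5 groups were the nuclei named Medial Thalamus, Centre Median, Ventral Thalamus, Anterior Thalamus and Pulvinar, each with 2 arrays numbered replicate 1 and replicate 2. The study asked which genes are particular to each nucleus. The labels give no animal, age in years, sex or strain, and do not say whether the arrays of a nucleus came from separate animals, so a p-value measures only the spread between these arrays. A punch holds many cell types, and fewer cells of a type cannot be told apart from less RNA per cell.

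Opioid peptides are cut from larger precursor proteins and act on G protein coupled receptors that, through inhibitory G proteins, lower adenylyl cyclase activity, open potassium channels and close presynaptic calcium channels. Enkephalins from PENK act mainly on the delta receptor (OPRD1) and the mu receptor (OPRM1), dynorphins from PDYN on the kappa receptor (OPRK1), and nociceptin from PNOC on the nociceptin receptor (OPRL1). The medial and intralaminar nuclei of the thalamus, the latter including the centre median nucleus, are known as relays of the affective side of pain and as sites of opioid binding.

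Values are log2 of the deposited normalized intensity plus 1, and differences are on that scale. Levels are compared between arrays for the same probe set, never between probe sets, since binding differs from probe to probe. Probe sets were tested with limma, with the Benjamini-Hochberg adjustment over all 19065 probe sets, and were called at an adjusted p under 0.05. Each difference was tested in a fit of the nuclei alone and in one that also took the replicate number as a block. Arrays with the same number deviated together, with correlations between nuclei of 0.752 to 0.828, so the numbers were taken to pair the arrays. The labels do not say what a number stands for. The replicate 1 arrays differed among themselves in the X chromosome transcript XIST, given with OPRK1 below. In the F test and the 6 comparisons an unadjusted p under 0.05 was reached by 0.336% to 1.40% of all probe sets without the block and by 3.78% to 10.7% with it. Intervals are 95% intervals of the blocked fit and are not adjusted for the number of probe sets.

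**Figure D1:**
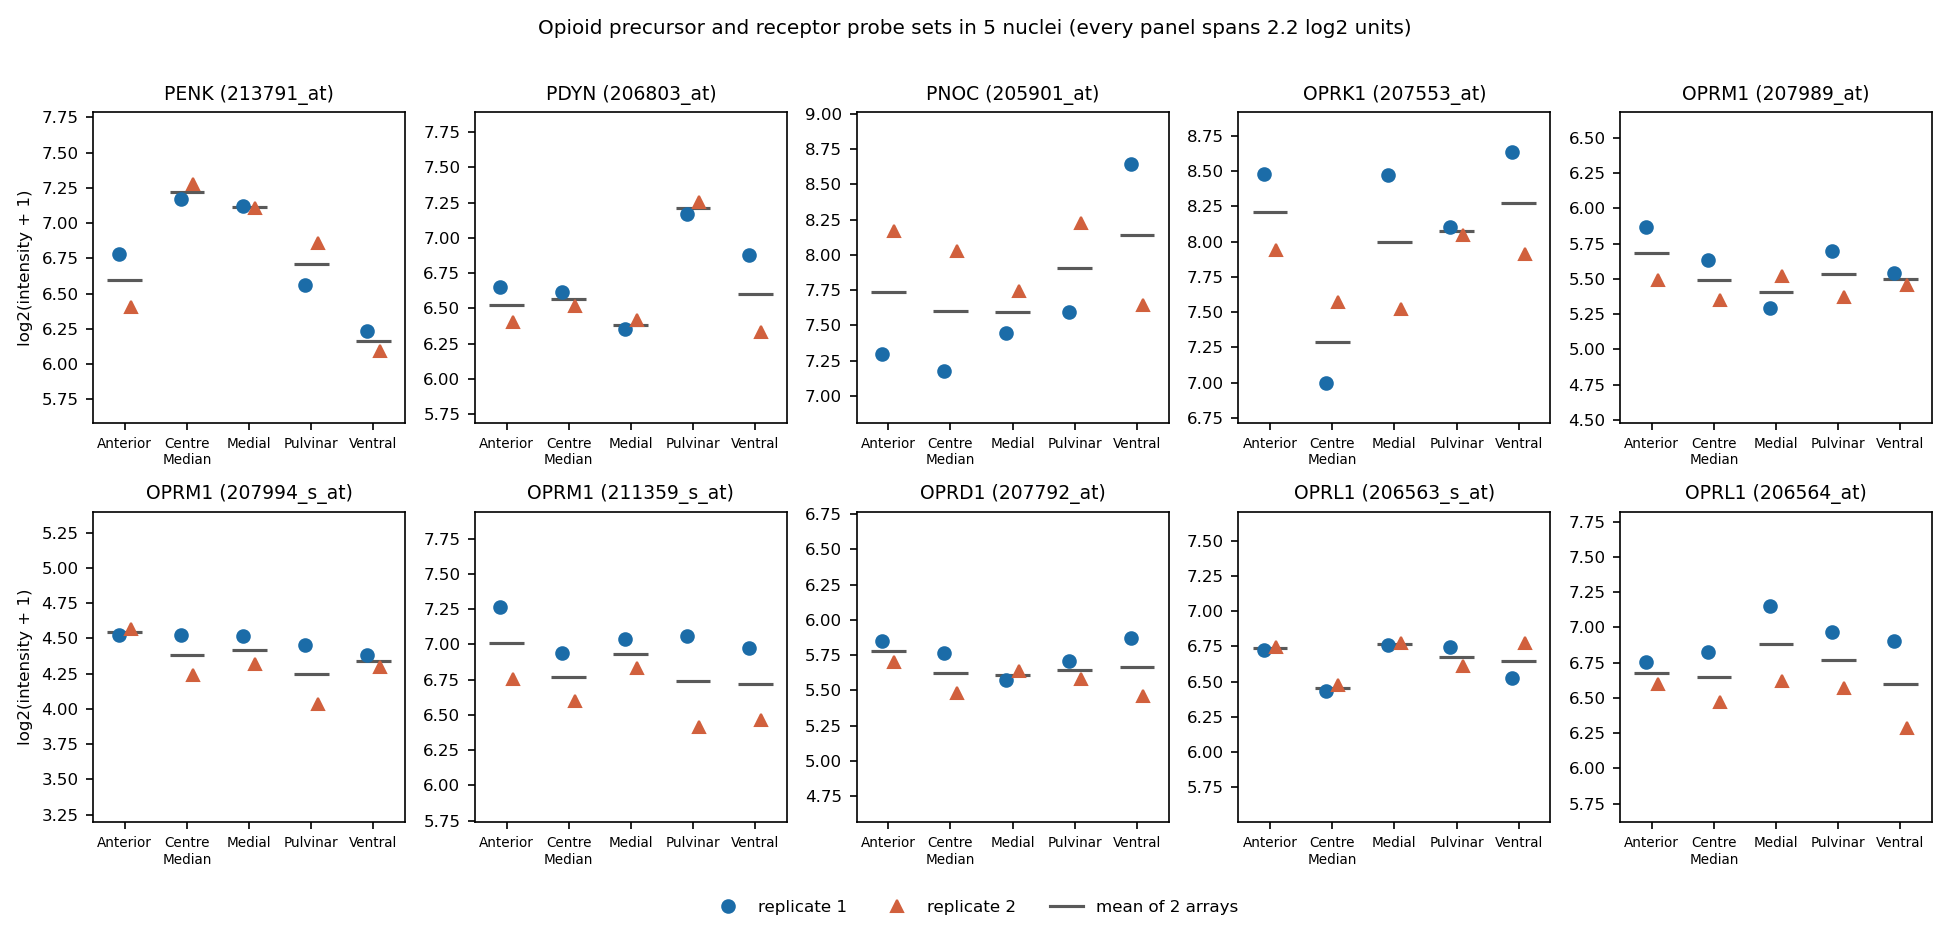
Log2(intensity + 1) of the 10 opioid probe sets (vertical axis) in the 5 nuclei (horizontal axis), with circles for replicate 1, triangles for replicate 2 and a bar at the mean of both arrays; every panel spans the same 2.2 log2 units. The 4 PENK values of Centre Median and Medial Thalamus, 7.11 to 7.28, lie above the other 6, and the Pulvinar values of PDYN, 7.17 and 7.25, lie above the other 8.

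PENK, the proenkephalin precursor, was the 1 member called in any comparison of nuclei in these fits: it was high in Centre Median and Medial Thalamus, here called the medial nuclei, and low in Ventral Thalamus. The shared name is a shorthand for the pair, since Centre Median is an intralaminar nucleus. Its level (probe set 213791_at) was 7.17 and 7.28 in the Centre Median arrays (replicates 1 and 2), 7.12 and 7.11 in Medial Thalamus, 6.56 and 6.86 in Pulvinar, 6.78 and 6.41 in Anterior Thalamus, and 6.24 and 6.10 in Ventral Thalamus. The 4 arrays of Centre Median and Medial Thalamus were all above the 6 arrays of the other nuclei. Such a separation upward was found for 0.231% of all probe sets. The nucleus means were 7.22 ± 0.07 (SD, n = 2) in Centre Median, 7.12 ± 0.0079 (SD, n = 2) in Medial Thalamus, 6.71 ± 0.21 (SD, n = 2) in Pulvinar, 6.60 ± 0.27 (SD, n = 2) in Anterior Thalamus and 6.17 ± 0.10 (SD, n = 2) in Ventral Thalamus.

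PENK averaged 7.17 in Centre Median and Medial Thalamus together and 6.49 in the other 3 nuclei, a difference of 0.68, or 1.60-fold. The difference was 0.62 among the replicate 1 arrays and 0.74 among the replicate 2 arrays. With the replicate block its SE was 0.10, its interval ran from 0.46 to 0.89 and its adjusted p was 0.0137 (limma). In that fit 0.0997% of all probe sets were called higher in Centre Median and Medial Thalamus, and PENK was the 1 member called in either direction. Without the block the unadjusted p was 0.00044, the adjusted p was 1, and 0% of all probe sets were called. The call was also lost with the actin covariate (adjusted p = 0.0857, difference 0.69). That covariate is the log2 ratio of the 3' to the 5' actin control probe sets, a sign of RNA integrity. It was lost as well without Centre Median replicate 1, where the difference was 0.72, and without Centre Median replicate 2, where it was 0.64. Over all settings the adjusted p ran from 0.00404 to 1.

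PENK was low in Ventral Thalamus, where both arrays lay below the other 8, as they did for 1.14% of all probe sets. Its mean there was 6.17 against 6.91 in the other 4 nuclei, which is 1.68-fold lower, with a difference of -0.75 (SE 0.12, interval -1.01 to -0.48). With the block the adjusted p was 0.0299, and 0.0734% of all probe sets were called lower there. Without the block the unadjusted p was 0.00089, the adjusted p was 1, and 0% of probe sets were called in Ventral Thalamus. The call was lost after quantile normalization (adjusted p = 0.0553), with the actin covariate (adjusted p = 0.383), and without either Centre Median array (0.0589 without replicate 1, 0.0933 without replicate 2) or either Ventral Thalamus array (0.153 and 0.344). Over all settings the adjusted p ran from 0.00755 to 1. The actin ratio was highest in Ventral Thalamus in both replicates (1.22 and 1.64). With the ratio as a covariate the PENK difference was -0.76, against -0.75 without it. Beyond that fit, the part of the ratio in the low PENK level was not tested.

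Direct comparisons of pairs placed both medial nuclei above Ventral Thalamus. PENK was 1.06 higher in Centre Median than in Ventral Thalamus (2.08-fold, adjusted p = 0.0136 with the block), and 0.95 higher in Medial Thalamus than in Ventral Thalamus (1.93-fold, adjusted p = 0.0170). These 2 calls were the only ones with the block among the 100 tests of 10 probe sets in 10 pairs of nuclei. With the block 0.114% of all tests of pairs were called. Without it 0 of the 100 were called, against 0.00157% of all tests of pairs. An unadjusted p under 0.05 was reached by 13 of the 100 without the block, against 0.32% to 1.65% of all probe sets in each pair. With the block it was reached by 19, against 4.03% to 12.5%. With the block, 1 test of pairs was called without Centre Median replicate 1 or without Medial Thalamus replicate 1, and 0 tests were called when Ventral Thalamus replicate 1 was left out. Both calls were lost with the block and the actin covariate, where 0 tests were called. No neighbours in the order of PENK levels were called against each other. Centre Median minus Medial Thalamus was 0.11 (interval -0.23 to 0.44), and Anterior Thalamus minus Pulvinar was -0.12 (interval -0.45 to 0.22). At the other 2 steps the unadjusted interval lay above 0, without a call. Medial Thalamus minus Pulvinar was 0.40 (interval 0.07 to 0.74, adjusted p = 0.56 with the block), and Anterior minus Ventral Thalamus was 0.43 (interval 0.10 to 0.76, adjusted p = 0.413).

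Taken 1 at a time, neither medial nucleus was called for PENK against the other 4 nuclei. Both Centre Median arrays exceeded the other 8, as in 0.96% of all probe sets, with a difference of 0.58 (1.49-fold, interval 0.31 to 0.84, adjusted p = 0.129 with the block). Medial Thalamus differed by 0.44 (interval 0.18 to 0.71, adjusted p = 0.226). Over all 5 nuclei at once, the F test gave PENK an adjusted p of 0.0466 with the block, in which 0.215% of all probe sets were called, and of 1 without it, in which 0% were called. That call was lost after quantile normalization (adjusted p = 0.0948), with the actin covariate (0.24), without either Centre Median array (0.168 and 0.151) and without either Ventral Thalamus array (0.127 and 0.194). With the block 1 of the 10 opioid probe sets was called in the F test and 3 had an unadjusted p under 0.05 (PENK, PDYN and OPRK1), against 8.92% of all probe sets.

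Other cell populations also differed between the punches, and their part in the PENK result was not tested. Of the oligodendrocyte markers, 4 of 5 had a probe set of their own, and 4 of 4 were higher in Ventral Thalamus by their difference. MAG and MOG, 2 proteins of the myelin sheath, were called there at 1 probe set each (differences 0.86 and 0.67, adjusted p = 0.0171 and 0.0261 with the block). These were the only calls in Ventral Thalamus among the list's 11 probe sets, and 0.262% of all probe sets were called higher there. Their summed intensity was 13594 to 16912 in Ventral Thalamus, 11019 to 13966 in Centre Median, 11132 to 12168 in Anterior Thalamus, 7391 to 12478 in Pulvinar and 6654 to 9976 in Medial Thalamus. The sums of the 2 Medial Thalamus arrays lay below those of the Centre Median arrays, whose range overlapped with those of Anterior Thalamus, Pulvinar and Ventral Thalamus. The water channel gene AQP4, of astrocytes, had a difference of -1.27 in Ventral Thalamus (210066_s_at, adjusted p = 0.0246 with the block). It was the 1 call there among the list's 10 probe sets, and 0.0734% of all probe sets were called lower there. Over the astrocyte list 2 of 5 genes were higher in Ventral Thalamus (median difference -0.09), 5 of 5 in Medial Thalamus (median 0.11) and 3 of 5 in the medial nuclei (median 0.03).

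Markers of inhibitory neurons and of the striatum, whose medium spiny neurons are rich in PENK, were examined in the same way. GAD1, the enzyme that makes GABA, was lower in Medial Thalamus at 1 probe set (9.06 against 10.1, difference -1.06, adjusted p = 0.0408 with the block). It was the 1 call there among the inhibitory list's 9 probe sets, and 0.0997% of all probe sets were called there in either direction. The summed inhibitory list was 1544 to 2024 in Medial Thalamus and 3148 to 4397 in Centre Median. Of 7 striatal markers, 4 had their own probe set (DRD1, DRD2, TAC1 and RGS9); none was called, and 4 of 4 had a positive difference in the medial nuclei, with a median of 0.11. Their summed intensity was 329 to 348 in Centre Median and 363 to 377 in Medial Thalamus, against 289 to 348 in Ventral Thalamus, 302 to 326 in Pulvinar and 343 to 435 in Anterior Thalamus. The part of these cells in the PENK level was not tested.

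The 4 markers of thalamic projection neurons (SLC17A6, TCF7L2, PROX1 and LHX2) were all measured, and none was called with the block. Their summed intensity was 4929 to 8144 in Medial Thalamus, 5823 to 8724 in Centre Median, 6879 to 10052 in Anterior Thalamus, 7085 to 10152 in Pulvinar and 7315 to 9988 in Ventral Thalamus. By their differences 1 of 4 was higher in the medial nuclei (median -0.20), 0 of 4 in Medial Thalamus and 4 of 4 in Anterior Thalamus, and the part of these neurons in the PENK result was not tested. Medial Thalamus replicate 2 stood apart in TTR and POU4F1, markers of tissue that borders the medial thalamus. TTR, a transport protein made in the choroid plexus, was 4.43 above the other replicate 2 arrays there and -0.19 relative to the others in replicate 1, and POU4F1, a transcription factor of the habenula, differed by 1.69 and -0.25 (206940_s_at). By their differences 3 of 4 genes of the choroid plexus list (median 0.24) and 4 of 4 of the habenula list (median 0.14) were higher in Medial Thalamus, and none was called. PENK was 7.12 and 7.11 in these Medial Thalamus arrays. Without replicate 2 of that nucleus its difference between the medial nuclei and the rest was 0.68 with the block. The part of the bordering tissue in the PENK level was not tested.

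**Figure D2:**
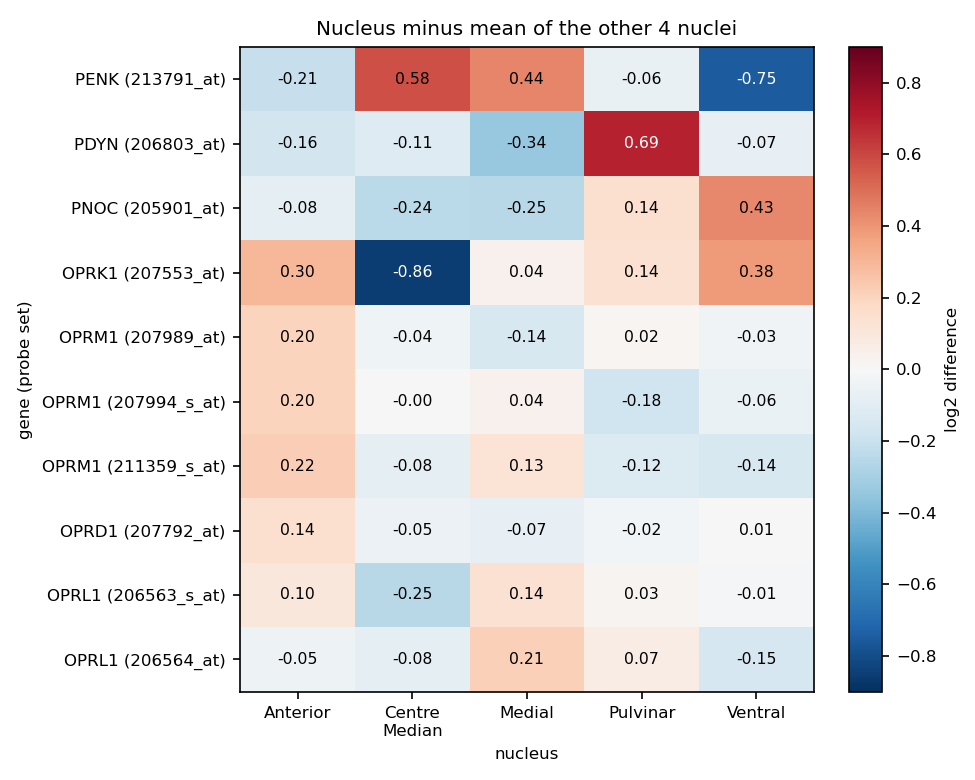
Log2 difference between each nucleus (columns) and the mean of the other 4 nuclei for the 10 opioid probe sets (rows), with red above and blue below 0. The deepest colours are OPRK1 in Centre Median (-0.86), PENK in Ventral Thalamus (-0.75) and PDYN in Pulvinar (0.69); of these, PENK in Ventral Thalamus passed the test with the replicate block.

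PDYN, the prodynorphin precursor, had its high values in Pulvinar. Its level (206803_at) was 7.17 and 7.25 in Pulvinar, 6.88 and 6.33 in Ventral Thalamus, 6.62 and 6.52 in Centre Median, 6.65 and 6.40 in Anterior Thalamus, and 6.35 and 6.42 in Medial Thalamus. Both Pulvinar arrays exceeded the other 8, a separation found in 0.54% of all probe sets. The mean was 7.21 in Pulvinar and 6.52 elsewhere, a difference of 0.69 (1.61-fold, interval 0.43 to 0.96), and it was 0.55 and 0.83 within replicates 1 and 2.

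The PDYN difference did not pass the test over all probe sets. Its unadjusted p with the block was 9.55e-05 and its adjusted p 0.304 (limma). In Pulvinar 0% of all probe sets were called with the block and 0% without it. The smallest adjusted p among the pairs was for Medial Thalamus against Pulvinar, at 0.0911, with a difference of -0.83 (1.77-fold) that was -0.82 and -0.83 in the 2 replicates. The other 4 nuclei had means between 6.38 and 6.60. Between the medial nuclei and the rest PDYN differed by -0.30 (interval -0.52 to -0.09, adjusted p = 0.385), and by -0.14 with the actin covariate (adjusted p = 0.938).

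PNOC, the precursor of nociceptin, varied between replicates as much as between nuclei. Its level (205901_at) was 8.64 and 7.64 in Ventral Thalamus, 7.60 and 8.22 in Pulvinar, 7.30 and 8.17 in Anterior Thalamus, 7.18 and 8.03 in Centre Median, and 7.45 and 7.74 in Medial Thalamus. Replicate 2 exceeded replicate 1 by 0.30 to 0.88 in 4 nuclei and was 1.00 lower in Ventral Thalamus. Ventral Thalamus against the other 4 nuclei was therefore 1.26 within replicate 1 and -0.40 within replicate 2, with a mean difference of 0.43 (interval -0.14 to 1.01, adjusted p = 0.616 with the block). Without Ventral Thalamus replicate 2 the difference of 1.26 had an adjusted p of 0.0489 in the blocked fit, within a range of 0.0489 to 1 over all settings. Where a nucleus is left with 1 array, here and elsewhere, that array is assumed to vary like those of the other nuclei. No other nucleus had a PNOC difference beyond -0.25 to 0.14.

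OPRK1, the kappa receptor on which dynorphins act, was lowest in Centre Median. Its level (207553_at) was 7.00 and 7.57 in Centre Median, 8.47 and 7.52 in Medial Thalamus, 8.10 and 8.05 in Pulvinar, 8.48 and 7.94 in Anterior Thalamus, and 8.64 and 7.91 in Ventral Thalamus. Centre Median replicate 1 was below all other arrays, whereas Centre Median replicate 2 lay above Medial Thalamus replicate 2. The nucleus mean of 7.29 was 0.86 below the 8.14 of the other nuclei (1.81-fold, SE 0.21, interval -1.32 to -0.39), with -1.42 within replicate 1 and -0.29 within replicate 2.

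The low OPRK1 level in Centre Median did not pass the test over all probe sets, with an adjusted p of 0.259 with the block. In Centre Median 0.0944% of all probe sets were called with the block and 0.0105% without it, and 0 of the 10 opioid probe sets were called in either fit. An unadjusted p under 0.05 (limma) was reached by 3 of the 10 with the block and 2 without it, against 5.92% and 0.913% of all probe sets. The size moved with the array left out: without Centre Median replicate 2 the difference was -1.42 with an adjusted p of 0.0341, and without Centre Median replicate 1 it was -0.29 with an adjusted p of 1, both with the block and at the ends of the range over all settings. A further value moves with these arrays. XIST, a transcript of the inactive X chromosome, was 6.70 to 7.22 (221728_x_at) in replicate 1 of Anterior, Medial and Ventral Thalamus, 8.96 in Centre Median replicate 1, 9.60 in Pulvinar replicate 1, and 9.86 to 10.3 in the replicate 2 arrays. RPS4Y1, a gene of the Y chromosome, was 8.16 to 8.94 in the 3 arrays with low XIST and 6.96 to 7.65 in the other arrays. In Anterior, Medial and Ventral Thalamus the 2 replicates therefore differed in these sex-linked transcripts. The 3 arrays with low XIST were those with OPRK1 above 8.4. With the replicate 1 arrays split along that line, the OPRK1 difference in Centre Median was -0.48 (adjusted p = 0.483). The PENK difference between the medial nuclei and the rest was 0.71 with that split (adjusted p = 0.00404).

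**Figure D3:**
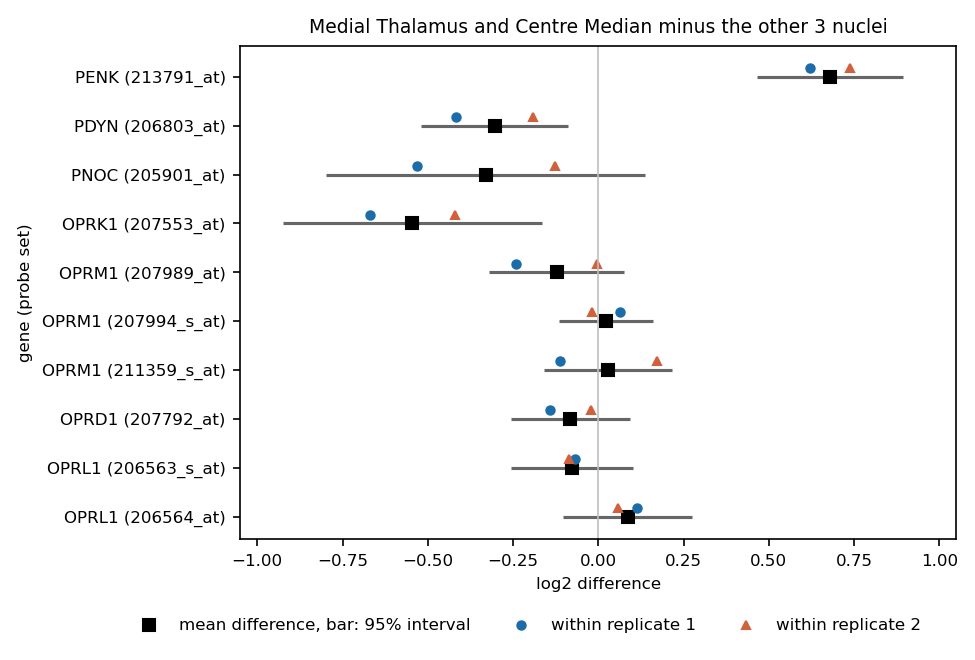
Difference in log2(intensity + 1) between Centre Median with Medial Thalamus and the other 3 nuclei (horizontal axis) for each opioid probe set (vertical axis); squares are means, bars 95% intervals of the fit with the replicate block, circles and triangles the difference within replicates 1 and 2. PENK stands at 0.68, and the 3 OPRM1 probe sets lie between -0.12 and 0.03 with intervals that include 0.

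The mu receptor gene OPRM1, the main target of morphine, was not called between the medial nuclei and the rest in any of its 3 probe sets. Probe set 211359_s_at read 6.94 and 6.60 in Centre Median, 7.03 and 6.83 in Medial Thalamus, 7.06 and 6.41 in Pulvinar, 7.27 and 6.75 in Anterior Thalamus, and 6.97 and 6.47 in Ventral Thalamus. Probe set 207989_at ranged from 5.29 to 5.87 over the 10 arrays, and 207994_s_at from 4.03 to 4.56. The medial nuclei overlapped with the others in all 3, although for 207989_at Medial Thalamus replicate 1 (5.29) and Centre Median replicate 2 (5.35) lay below all arrays of the other nuclei. The differences between Centre Median with Medial Thalamus and the other 3 nuclei were 0.03 (interval -0.16 to 0.22), -0.12 (interval -0.32 to 0.07) and 0.02 (interval -0.12 to 0.16), with adjusted p of 0.981, 0.863 and 0.976 in the blocked fit.

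The 3 OPRM1 probe sets shared a small positive difference in Anterior Thalamus: 0.22, 0.20 and 0.20, none of which passed the test (adjusted p = 0.878, 0.888 and 0.871 with the block). Over both fits, leaving out 1 array moved them from -0.038 to 0.48 for 211359_s_at, from 0.0085 to 0.39 for 207989_at and from 0.056 to 0.34 for 207994_s_at, and in the fit without the block the direction of the first rests on Anterior Thalamus replicate 1 (0.17 without that array in the blocked fit). For 207994_s_at, at 4.53 and 4.56 there, both arrays lay above the other 8, as in 0.829% of all probe sets. This probe set is low on the scale, where the lowest value on an array was 3.39 to 3.73. In Anterior Thalamus 0% of all probe sets were called with the block and 0% without it. The probe sets of this gene agreed only in part, with correlations over the 10 arrays of 0.245 to 0.603 after the mean of each replicate number was subtracted. Those arrays share their RNA across probe sets, so this is a description.

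OPRD1, the delta receptor on which enkephalins act, had the narrowest range of nucleus means of the 10 probe sets, 0.17. Its level (207792_at) was 5.85 and 5.70 in Anterior Thalamus, 5.87 and 5.46 in Ventral Thalamus, 5.71 and 5.58 in Pulvinar, 5.76 and 5.48 in Centre Median, and 5.57 and 5.64 in Medial Thalamus. All nuclei overlapped. Centre Median and Medial Thalamus differed from the rest by -0.08 (interval -0.26 to 0.09, adjusted p = 0.917 with the block).

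OPRL1, the nociceptin receptor, was measured by 2 probe sets that did not single out the same nucleus. Probe set 206563_s_at read 6.44 and 6.48 in Centre Median, 6.76 and 6.77 in Medial Thalamus, 6.75 and 6.61 in Pulvinar, 6.73 and 6.74 in Anterior Thalamus, and 6.52 and 6.77 in Ventral Thalamus. Both Centre Median arrays lay below the other 8, as in 0.698% of all probe sets. The difference was -0.25 within each replicate (interval -0.47 to -0.03, adjusted p = 0.728 with the block). Probe set 206564_at, in contrast, was 6.83 and 6.47 in Centre Median, inside the range of the other nuclei, and differed there by -0.08 (interval -0.31 to 0.15). Its highest mean, 6.88, was in Medial Thalamus, where it differed by 0.21 (adjusted p = 0.572); without Medial Thalamus replicate 1 the difference was -0.056 in the fit without the block and 0.13 in the fit with it. In Medial Thalamus 0 of the 10 opioid probe sets were called, against 0.0997% of all probe sets with the block and 0% without it. There 2 of the 10 with the block and 1 without it had an unadjusted p under 0.05 (limma), against 9.6% and 1.08% of all probe sets.

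Over the 10 opioid probe sets, 4 were higher in Centre Median and Medial Thalamus than in the other 3 nuclei, with a median difference of -0.08. Over all 19065 probe sets the median was 0.0033 and 51.6% were higher. In Centre Median, where PENK had its highest mean, the intervals of OPRM1 and OPRD1 included 0, and in Pulvinar, where PDYN had its highest mean, OPRK1 differed by 0.14 (interval -0.33 to 0.60).

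Several receptor probe sets differed between the replicate numbers. OPRM1 211359_s_at was 0.44 lower in replicate 2 than in replicate 1, in 5 of 5 nuclei (adjusted p = 0.00091, limma with nucleus in the model). OPRL1 206564_at was lower by 0.41, in 5 of 5 nuclei (adjusted p = 0.00151), and OPRM1 207994_s_at by 0.19, in 4 of 5 (adjusted p = 0.0212). These 3 of 10 stand against 29.9% of all probe sets called lower in replicate 2. The lowest value on an array was 3.70 to 3.73 in replicate 1 and 3.39 to 3.40 in replicate 2. OPRM1 207994_s_at, at 4.03 to 4.56, lay not far above it, and the part of this shift was not tested. PENK did not follow the replicate number, with a shift of -0.02 (adjusted p = 0.843). The log2 ratio of the 3' to the 5' actin control probe sets, a sign of RNA integrity, ran from -0.09 to 1.22 in replicate 1 and from 1.15 to 1.64 in replicate 2. Ventral Thalamus had the highest ratio in both replicates, and the next highest were 0.46 (Centre Median replicate 1) and 1.36 (Anterior Thalamus replicate 2). The part of this ratio in these shifts was not tested. Its part in the Ventral Thalamus differences was not tested beyond the fits with it as a covariate.

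The other genes of the opioid pathway were taken from a list of 52, of which 45 had probe sets of their own (89 probe sets); the others, such as PCSK1, PCSK2, LNPEP, KCNJ3, ADCY5 and ARRB2, were not analysed here. Without the block 0 of the 89 were called in the F test or in any of the 6 comparisons. Between the medial nuclei and the rest, 8 had an unadjusted p under 0.05 (limma) without the block, against 1.23% of all probe sets. In the blocked fit 16 did, against 7.57% of all probe sets. With the block 2 were called: RGS7, lower in the medial nuclei, where 0.184% of all probe sets were called lower, and ADCY1, higher in Ventral Thalamus, where 0.262% were called higher. In Centre Median and Medial Thalamus 54 of the 89 were higher, with a median difference of 0.03, against 51.6% of all probe sets.

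RGS7, a protein that speeds the shutdown of inhibitory G protein signals, was lower in Centre Median and Medial Thalamus. Probe set 206290_s_at read 7.34 and 7.83 in Centre Median, 7.59 and 7.93 in Medial Thalamus, 8.08 and 8.50 in Pulvinar, 7.84 and 8.29 in Anterior Thalamus, and 7.94 and 8.23 in Ventral Thalamus. Within each replicate number both medial nuclei lay below the other 3, although the arrays overlap when replicates are mixed. The means were 7.67 and 8.15, a difference of -0.47 (SE 0.08), which was -0.49 and -0.46 in replicates 1 and 2, with an adjusted p of 0.0265 with the block. The call was lost with the actin covariate (adjusted p = 0.158) and when any 1 array other than Medial Thalamus replicate 1 was left out (0.0545 to 0.219), with differences of -0.44 to -0.50. A second RGS7 probe set, 216970_at, differed by 0.09 (adjusted p = 0.922), so the gene's probe sets disagree.

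ADCY1, a calcium-stimulated adenylyl cyclase of neurons, was higher in Ventral Thalamus, the nucleus with the low PENK level. Probe set 213245_at read 9.38 and 9.62 in Ventral Thalamus, 9.02 and 8.26 in Pulvinar, 8.91 and 8.97 in Anterior Thalamus, 8.67 and 8.43 in Centre Median, and 8.70 and 8.21 in Medial Thalamus. Both Ventral Thalamus arrays exceeded the other 8, as in 1.57% of all probe sets. The difference was 0.86 (SE 0.16, 0.56 and 1.16 in the 2 replicates), with an adjusted p of 0.0498 with the block. It was 1.26 when the actin covariate was added. The call was lost after quantile normalization (0.12), with the actin covariate (0.145), without either array of Anterior Thalamus, Centre Median or Ventral Thalamus (0.0546 to 0.615) and without Pulvinar replicate 2 (0.0546). The ADCY1 probe sets 215340_at and 215348_at differed there by -0.28 and -0.04, neither called (adjusted p = 0.494 and 0.936).

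**Figure D4:**
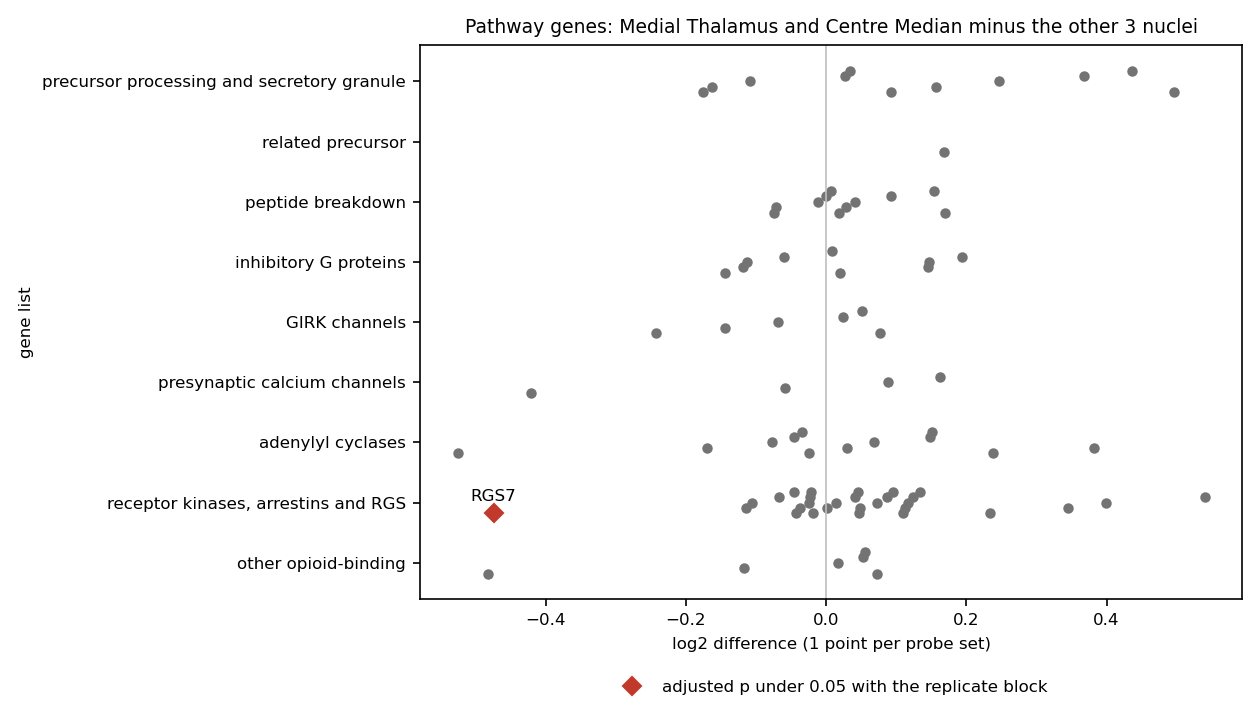
Difference in log2(intensity + 1) between Centre Median with Medial Thalamus and the other 3 nuclei (horizontal axis) for the 89 probe sets of the opioid pathway, by gene list (vertical axis); the red diamond is the probe set called with the replicate block. RGS7 at -0.47 is the 1 call, and 54 of the 89 points lie above 0, against 51.6% of all probe sets.

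The remaining lists held no call, and each is given by its probe set with the smallest p. Among the 8 measured genes of precursor processing and secretory granules, 5 were higher in the medial nuclei by the probe set of highest mean. PAM, which amidates the ends of neuropeptides, differed there by 0.50 at 202336_s_at (10.4 to 10.6 on the 4 medial arrays and 9.73 to 10.2 on the other 6, adjusted p = 0.0679 with the block), and its other probe sets differed by 0.44 and 0.25. POMC, the related precursor of beta-endorphin, differed by 0.22 in Medial Thalamus (adjusted p = 0.527), with 0.44 within replicate 1 and 0.01 within replicate 2. Of the peptide-degrading enzymes, 5 of 7 were higher in the medial nuclei, and the endothelin-converting enzyme gene ECE1 differed by -0.40 in Centre Median (201750_s_at, adjusted p = 0.281).

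Downstream of the receptors, 2 of 5 inhibitory G protein genes, 0 of 3 GIRK potassium channel genes, 1 of 2 presynaptic calcium channel genes and 2 of 5 adenylyl cyclase genes were higher in the medial nuclei. GNAI1, an inhibitory alpha subunit, had an F test adjusted p of 0.135 (209576_at), and its replicate 2 level exceeded its replicate 1 level in every nucleus. KCNJ6, a GIRK subunit, differed by 0.52 in Pulvinar (210454_s_at, adjusted p = 0.768). CACNA1A, the pore of P/Q-type calcium channels, differed by -0.42 in the medial nuclei at 214933_at (adjusted p = 0.0908), and its other probe sets by 0.09 and -0.06. OPCML, a cell adhesion protein first described as opioid-binding, differed by -0.61 in Medial Thalamus at 214111_at (adjusted p = 0.0792), with -0.59 and -0.62 in the 2 replicates.

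The genes whose pattern was most like each member were ranked by Pearson's r over the 10 arrays, after the mean of each replicate number was subtracted, for the members with an unadjusted F p under 0.05 in the blocked fit. The arrays share nuclei and replicate numbers, and the values are a description. For PENK the highest r were those of INSIG1 (0.963), CCDC70, AQR, ZNF253 and LINS1 (0.906 for the last), and the lowest were those of LRRC49 (-0.980), TRAPPC3 and DEXI (-0.970 for the last). INSIG1 had means of 8.61 in Centre Median and 8.07 in Ventral Thalamus, and LRRC49 ran the opposite way, from 8.67 to 9.70.

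For PDYN the highest r were those of MINDY2 (0.950), LPIN2, JADE1, ANKH and OGFRL1 (0.910 for the last), with means of MINDY2 of 7.54 in Pulvinar and 7.27 in Medial Thalamus. The lowest were those of CXCL1 (-0.962), PGR and LMAN2. For OPRK1 the highest were those of DMD (0.955), NELL2, NBL1, KCTD13 and FJX1 (0.914 for the last), and the lowest those of PLK2 (-0.956), ITGA8 and SERPINI2. NELL2 had a mean of 9.49 in Centre Median and 9.93 to 10.2 in the other nuclei.

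**Figure D5:**
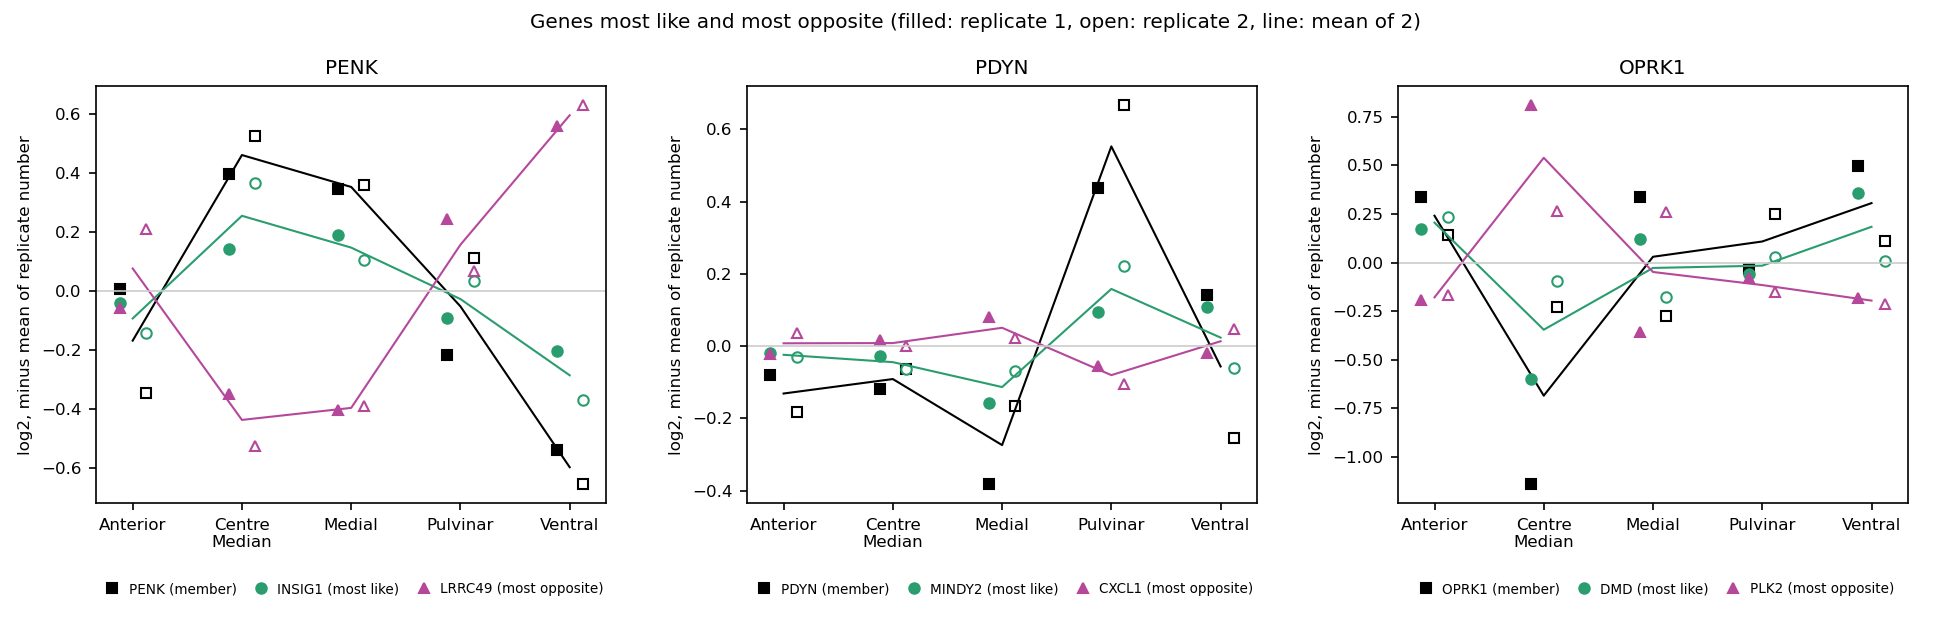
Log2(intensity + 1) minus the mean of the replicate number (vertical axis) in the 5 nuclei (horizontal axis) for PENK, PDYN and OPRK1 with the gene most like and most opposite to each; filled symbols are replicate 1, open symbols replicate 2, and lines join the means of 2 arrays. INSIG1 follows PENK (r = 0.963) over a smaller range, and LRRC49 mirrors it (r = -0.980).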

How the data were processed

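Total RNA from 10 thalamic punches was biotin-labelled and hybridised to U133A arrays. The authors deposited normalized intensity values made with RMA (per the submitters' processing notes), whose version and joint or separate handling of the replicate sets are not given in the sources used here. Array medians ran from 94.17 to 100.6. The files hold no detection calls, so a low value was not read as absence; precision is limited by the number of arrays.

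Values were used as log2(value + 1), a pseudocount of 1. Of 22283 probe sets, 68 were controls and 19065 others had 1 gene symbol in the platform annotation. The tests used limma 3.58.1 in R 4.3.3 (lmFit, eBayes with trend), with 1 coefficient per nucleus and with or without the replicate number, and contrasts of each nucleus with the other 4, of Medial Thalamus and Centre Median with the other 3, and of all pairs. The replicate numbers were taken to pair the arrays because all 10 correlations of replicate differences between nuclei were over 0.1. The fits had 5 and 4 residual degrees of freedom. The scripts were tested on simulated data. Figures used matplotlib 3.10.9.

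The members, gene lists, tests and the rule for named genes were chosen with earlier results of these data known. Named were all member probe sets, the pathway probe sets called in either fit and otherwise that with the smallest p of each list, and the 5 most like and 3 most opposite genes. The 7 members all matched RefSeq by symbol; no build is given with the values, so no coordinates are printed. Alternatives were the block, a pseudocount of 16, a filter at the median, quantile normalization and 1 probe set per gene. Others were the log2 ratio of 3' to 5' actin as a covariate, each array left out, and, chosen after seeing the data, the replicate 1 arrays split by XIST.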

Additional observations from a re-analysis of the deposited data

How the results depend on the processing

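The PENK difference between the medial nuclei and the rest was 0.60 to 0.75 in the 30 other settings. Its kept direction says little, since the 4 medial arrays lay above the other 6. Without the block, leaving out 1 array could therefore not turn it, and the block by itself left it at 0.68. With the replicate block (pairing the arrays), the counts of opioid probe sets called went from 0 to 1 in the F test, in Ventral Thalamus and between the medial nuclei and the rest, from 0 to 2 over the pairs, and from 0 to 2 among pathway probe sets. The counts were the same with the block and 1 probe set per gene, a filter at the median (4 for the pathway), or the replicate 1 arrays split by XIST; with the block and quantile normalization they were 1 for the medial nuclei, 2 for the pairs and 2 for the pathway. Leaving out 1 array gave 0 to 1 in the F test, Centre Median, Ventral Thalamus and the medial nuclei, 0 to 2 over the pairs and 0 to 3 for the pathway. With block and actin covariate 0 tests of pairs were called, PNOC in Ventral Thalamus became -0.22 and OPRD1 in the medial nuclei 0.067. Leaving out 1 array moved PNOC in Ventral Thalamus from -0.40 to 1.26, OPRM1 211359_s_at in Anterior Thalamus from -0.038 to 0.48, and OPRL1 206564_at in Medial Thalamus from -0.056 to 0.48. Between the medial nuclei and the rest it moved OPRM1 207989_at from -0.25 to 0.0023, 207994_s_at from -0.047 to 0.094, 211359_s_at from -0.079 to 0.14 and OPRL1 206564_at from -0.048 to 0.22. The causes were not tested. With 2 arrays per nucleus and no detection calls, differences in weakly bound probe sets may not be detectable.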
